A study of Mus musculus with 42 samples.

Results

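Collagens are extracellular matrix proteins built from alpha chains wound into a triple helix, and each alpha chain has its own gene. The fibrillar collagens (types I, II, III, V, XI, XXIV and XXVII) form the fibrils that give connective tissue its tensile strength, and type IV collagen forms the network of basement membranes under epithelia and around vessels. The remaining types form microfilaments, anchoring fibrils, networks and fibril-associated or membrane-spanning molecules. In lung, liver and forestomach most collagen mRNA is known to come from fibroblasts, stellate cells, smooth muscle, endothelium and epithelium, and deposition of types I and III is a hallmark of fibrosis.

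The collagen genes were taken as every array probe whose gene symbol has the form Col, a type number, a and a chain number. They comprised 61 probes for 42 genes, out of 55681 probes for 20018 named genes, with 11 fibrillar genes, 6 genes of type IV collagen and 25 genes of other types. The annotation lists 44 such symbols, and no probe carried the symbols Col6a3 and Col12a1. A probe was kept in a tissue when its tissue-RNA signal was well above background on 3 or more arrays of that tissue. This kept 39 probes (29 genes) in lung, 32 probes (27 genes) in liver and 32 probes (26 genes) in forestomach. Of the 42 genes, 20 were kept in all 3 tissues and 8 in none. Of the chains known from cartilage, Col2a1, Col9a1, Col9a3, Col10a1 and Col11a1 were kept in none, whereas Col9a2 was kept in all 3 and Col11a2 in lung.

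The arrays were 42 two-colour Agilent arrays of RNA from 15 adult male Muta™Mouse, a transgenic strain made for mutation assays, aged about 11 weeks. All mice were gavaged daily for 28 days with olive oil alone (D0, the vehicle-treated controls) or with benzo(k)fluoranthene in the same oil. BkF, as it is called below, is a combustion product of the polycyclic aromatic hydrocarbon class that activates the aryl hydrocarbon receptor (AhR). It was given at 25 (D1), 50 (D2) or 100 (D3) mg/kg-bw/day, and tissue was taken 72 h after the last gavage. D0, D1, D2 and D3 held 4, 3, 4 and 4 lungs, 4, 2, 3 and 4 livers, and 4, 3, 4 and 3 forestomachs. Every value below is a log2 ratio of tissue RNA (Cy5) over a commercial reference RNA made from 11 murine lines (Cy3), so a gene can be compared between samples but not with another gene, and errors on group means are SD. RNA came from random pieces of whole tissue, and in such bulk samples fewer cells of a type and less RNA per cell cannot be told apart.

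The hepatocyte marker list averaged 7.51 to 8.08 in livers and 0.012 to 0.406 in lungs, and the lung epithelium list 5.93 to 6.97 in lungs and 0.234 to 0.717 in livers. The squamous epithelium list, which marks forestomach, averaged 2.77 to 4.29 there and was lower in every lung and liver. Several arrays carried markers of another tissue. Skeletal muscle markers stood 5.37 above the tissue median in the lung of D2 mouse 12 and 4.50 above it in the liver of D3 mouse 17, where white fat markers stood 2.72 above. Glandular stomach markers were 3.61 above the median in the lung of D1 mouse 7. In forestomach, 5 arrays (D0 mice 1 and 4, D2 mouse 11, D3 mice 16 and 20) had glandular stomach scores of -5.07 to -3.90 and the other 9 of -0.51 to 0.64. Each score is the mean, over a list's genes, of the distance from the tissue's median log2 ratio.

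The first comparison was between tissues of the vehicle-treated controls, and every collagen difference that passed the test with all arrays in the fit lay here. Liver RNA held much less of the major fibrillar, type IV and type VI chains than lung or forestomach RNA, and much more Col18a1. Genes are described as called where limma's adjusted p was at most 0.05 and the difference at least 1.5-fold. Of the 43 collagen probes kept in lung or liver, 21 were called higher in lung and 6 higher in liver, where 25% and 18.5% of all probes were. The 6 include Col8a1, for which no direction is given below. Of the 28 kept in both, 18 were called higher in lung and 4 in liver, against 27.2% and 22.7% of all such probes. Liver arrays lay on 2 slides of their own and were read with a later scanner software version than the lung and forestomach arrays, so liver against another tissue and slide cannot be told apart in these contrasts. Markers of collagen-making and vascular cells also differed between these tissues, not all in the direction of the collagens. In lung against liver 6 of 8 fibroblast genes (median 3.20), 8 of 8 smooth muscle genes (median 2.56) and 4 of 6 endothelium genes (median 2.68) were called higher in lung. In forestomach against liver 7 of 8 fibroblast genes (median 2.23), 8 of 8 smooth muscle genes (median 5.61) and 0 of 6 endothelium genes (median -0.42) were called higher in forestomach. The endothelium gene Tie1 was called lower there (-1.71). Pericyte or stellate genes went both ways, with Pdgfrb at 2.67 and Hand2 at -1.92 in lung against liver. In forestomach against liver Rgs5 was at 3.03 and Lrat at -1.30. Their part in the collagen differences was not tested.

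**Figure D1:**
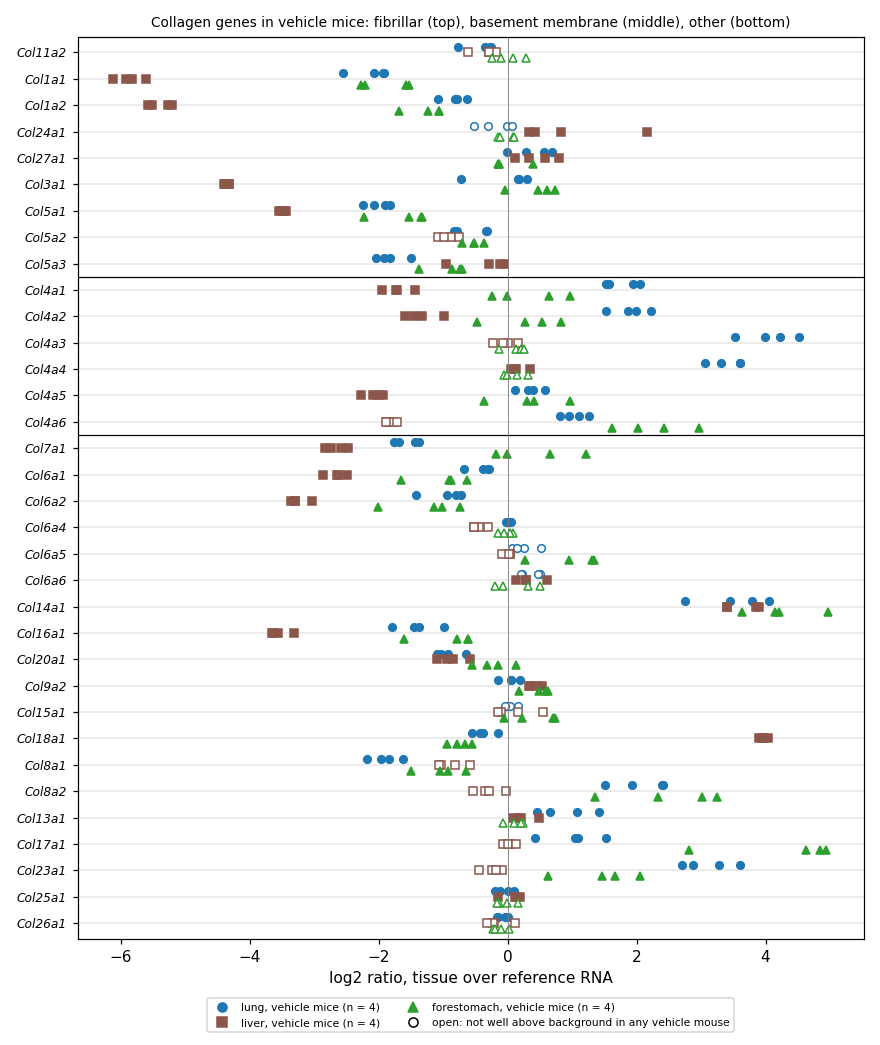
Log2 ratio of tissue RNA over reference RNA (x axis) for collagen genes (y axis) in the vehicle-treated controls, with 1 symbol for each of 4 mice in lung (circles), liver (squares) and forestomach (triangles), open where no mouse of the tissue was well above background. The 4 livers lie below all lungs and forestomachs for Col1a1, Col1a2 and Col3a1 and above them for Col18a1.

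Col1a1 and Col1a2 encode the chains of type I collagen, the main collagen of fibrous tissue. Col1a1 was -1.93, -2.07, -1.92 and -2.56 in the 4 control lungs, -5.93, -5.83, -5.61 and -6.12 in the livers and -2.28, -2.22, -1.53 and -1.58 in the forestomachs. The livers did not overlap with the other tissues. Col1a1 was 13.5-fold higher in lung than in liver (3.75 ± 0.42 log2, SE, limma adjusted p = 1.9e-09) and 15.7-fold higher in forestomach (3.97 ± 0.43, limma adjusted p = 6.7e-10). Col1a2 averaged -0.83 ± 0.19 in lung, -5.40 ± 0.18 in liver and -1.27 ± 0.29 in forestomach (n = 4 each), which was 23.7-fold and 17.5-fold above liver (limma adjusted p = 3.3e-13 and 5.1e-12).

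Col3a1, the chain of type III collagen that is laid down with type I in distensible tissue, was 0.16, 0.17, 0.29 and -0.73 in the lungs, -4.40, -4.32, -4.33 and -4.39 in the livers and 0.74, 0.47, 0.61 and -0.05 in the forestomachs. It was 20.2-fold higher in lung than in liver (4.34 ± 0.31, limma adjusted p = 3.4e-14) and 27.9-fold higher in forestomach (4.80 ± 0.31, limma adjusted p = 2.7e-15). Lung and forestomach overlapped for Col1a1 and Col3a1, and neither gene, nor Col1a2, was called between them. Col5a1, a chain of the type V collagen that nucleates type I fibrils, was likewise called higher in lung (1.48 ± 0.18) and forestomach (1.88 ± 0.18) than in liver. Col5a3, another type V chain, ran the other way. It averaged -1.82 ± 0.23 in lung, -0.35 ± 0.42 in liver and -0.92 ± 0.31 in forestomach, and was called lower in lung than in liver (-1.46 ± 0.25, limma adjusted p = 5.7e-06) and than in forestomach (-0.90 ± 0.25, limma adjusted p = 0.0035). Col24a1, a minor fibrillar chain, was well above background only in liver, at 2.17, 0.33, 0.83 and 0.43, and was at least 1.81-fold higher there than in lung and at least 1.64-fold higher than in forestomach. Its reference signal was well above background on 11 of 42 arrays. Mouse 1 stood well above the other 3 livers, and both bounds rest partly on it. Without it the log2 difference of lung from liver was -0.73, still called, and that of forestomach from liver -0.55, which was not.

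The windows around the starts of Col1a2 and Col3a1 are shown because these genes had the largest differences between lung and liver among the fibrillar chains. They were taken from RefSeq on GRCm38.p6 and run 5′ to 3′ on the gene's strand from 250 bases before the start to 50 after it. Col1a2 is at chr6:4505368-4505667 (+), with the CCAAT box, read on either strand, in capitals. Col3a1 is at chr1:45311288-45311587 (+), with a TATAAA match in capitals.
Col1a2: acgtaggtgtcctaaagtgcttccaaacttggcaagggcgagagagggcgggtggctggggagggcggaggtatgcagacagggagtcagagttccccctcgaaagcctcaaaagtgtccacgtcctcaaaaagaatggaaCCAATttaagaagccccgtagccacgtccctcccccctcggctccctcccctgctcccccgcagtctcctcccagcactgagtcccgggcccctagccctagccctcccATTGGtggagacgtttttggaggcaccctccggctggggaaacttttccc
Col3a1: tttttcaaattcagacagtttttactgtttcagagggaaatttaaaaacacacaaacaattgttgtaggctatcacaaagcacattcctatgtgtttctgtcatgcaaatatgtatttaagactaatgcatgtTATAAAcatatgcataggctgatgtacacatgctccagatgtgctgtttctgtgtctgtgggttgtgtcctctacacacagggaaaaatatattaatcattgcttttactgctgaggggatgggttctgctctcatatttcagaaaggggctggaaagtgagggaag

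Type IV collagen was largely higher in lung. Its chains assemble in fixed sets, with Col4a1 and Col4a2 in nearly all basement membranes and Col4a3, Col4a4 and Col4a5 in those of the alveolus and kidney glomerulus. All 6 type IV genes were called higher in lung than in liver, on 7 of the 8 probes kept in both tissues. Against forestomach, 3 probes of the 6 kept in both were called higher in lung and 1 higher in forestomach. Over all collagen probes kept in lung or forestomach, 11 of 41 were called higher in lung and 9 higher in forestomach, where 18.4% and 15.1% of all probes were. Of the 30 kept in both, 6 and 8 were, against 19.4% and 18.1% of all such probes.

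Col4a1 was 1.53, 2.05, 1.95 and 1.57 in the control lungs, -1.71, -1.73, -1.43 and -1.94 in the livers and -0.01, -0.25, 0.97 and 0.64 in the forestomachs. The 3 tissues did not overlap, and lung was 11.1-fold above liver (3.48 ± 0.33, limma adjusted p = 3.8e-11) and 2.71-fold above forestomach (1.44 ± 0.33, limma adjusted p = 0.00051). Col4a2 showed the same order, with lung 9.45-fold above liver (limma adjusted p = 7.1e-12) and 3.05-fold above forestomach (limma adjusted p = 2.1e-05).

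Col4a3 was 4.22, 3.99, 4.52 and 3.52 in the lungs and was not well above background on any control array of liver or forestomach. This put lung at least 13.6-fold above liver and at least 12.2-fold above forestomach (limma adjusted p = 7.2e-13 and 8.2e-12). Col4a4 followed it, at 3.61, 3.06, 3.61 and 3.32 in lung, which was 9.42-fold above liver (limma adjusted p = 5.3e-17). In forestomach it was not well above background on any control array, so no fold is given for that pair. The 2 other Col4a4 probes were also called higher in lung than in both tissues. Col4a6, a chain of epithelial and smooth muscle basement membranes, had another order. On its brightest probe it averaged 1.03 ± 0.19 in lung and 2.26 ± 0.57 in forestomach and was not well above background in liver, so that forestomach was 2.34-fold above lung (limma adjusted p = 0.015) and at least 13.7-fold above liver. The difference from lung was not called once slide was fitted as a block, at -1.03 (limma adjusted p = 0.0501), or without forestomach mouse 4 (-0.99, limma adjusted p = 0.064). Its other probe was highest in liver (0.58) and was not called in any of these contrasts.

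Col4a1 and Col4a2 are shown because they are arranged head to head on chromosome 8, with starts 21 bases apart on opposite strands. Their windows, from RefSeq on GRCm38.p6 and again 5′ to 3′ on each gene's strand, are chr8:11312555-11312854 (+) for Col4a2 and chr8:11312777-11313076 (-) for Col4a1. The capitals mark the 78 bases that both windows hold, each run being the reverse complement of the other.
Col4a2: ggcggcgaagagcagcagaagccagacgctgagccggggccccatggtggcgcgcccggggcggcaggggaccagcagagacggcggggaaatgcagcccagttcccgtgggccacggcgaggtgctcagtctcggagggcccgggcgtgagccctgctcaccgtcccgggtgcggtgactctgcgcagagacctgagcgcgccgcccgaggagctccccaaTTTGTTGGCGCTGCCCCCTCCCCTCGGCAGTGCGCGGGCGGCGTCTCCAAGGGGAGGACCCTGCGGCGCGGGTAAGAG
Col4a1: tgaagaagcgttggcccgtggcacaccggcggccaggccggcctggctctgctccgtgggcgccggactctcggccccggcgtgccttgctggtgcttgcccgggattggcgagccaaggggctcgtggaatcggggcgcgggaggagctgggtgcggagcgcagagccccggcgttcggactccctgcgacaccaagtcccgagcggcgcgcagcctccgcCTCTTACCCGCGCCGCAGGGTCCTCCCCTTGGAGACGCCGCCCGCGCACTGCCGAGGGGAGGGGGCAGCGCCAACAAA

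Windows of this kind were found for 34 of the 42 collagen genes, 37 windows in all. The letters GGGCGG (GC box) occurred on either strand in 62.2% of the collagen windows and 35.7% of all 32851 windows, CCAAT in 35.1% and 37.4%, TATAAA in 13.5% and 13.6%, and GCGTG, the core that AhR recognises, in 27.0% and 32.4%. These shares count letters in a window and not binding.

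Several pairs of chains that assemble together were compared from mouse to mouse, and the closest were Col4a1 with Col4a2 and hepatic Col1a1 with Col1a2. With each dose group's mean removed, Col4a1 and Col4a2 correlated across the 15 lungs with r = 0.96 (rho = 0.95), and with r = 0.89 without the 2 mice farthest from the median (adjusted permutation p for r = 3.7e-05). The smallest p that 100000 permutations can give is 1e-05 before adjustment. The same pair had r = 0.89 (rho = 0.88) in 13 livers, 0.80 without the 2 farthest, and r = 0.96 (rho = 0.94) in 14 forestomachs, 0.93 without them. Col1a1 and Col1a2 had r = 0.98 (rho = 0.85) in liver, 0.94 without the 2 farthest and 0.76 to 0.99 within the 2 liver slides. The livers left out were D2 mice 12 and 11, so D3 mouse 17, which was also high for both genes, stayed in. In lung and forestomach Col1a1 and Col1a2 had r = 0.71 and 0.70 but 0.44 and 0.40 without the 2 farthest, so the value in each tissue rests on its 2 farthest mice. Col4a3 and Col4a4 had r = 0.82 in lung and 0.85 in liver (rho = 0.84 and 0.77), 0.78 and 0.77 without the 2 farthest. Col6a1 and Col6a2 had r = 0.74, 0.70 and 0.86 in lung, liver and forestomach (rho = 0.70, 0.60 and 0.61) but 0.48, 0.62 and 0.64 without the 2 farthest, and -0.0073 and 0.73 within the 2 liver slides, so the relation did not hold within 1 of them. Of 11 such relations tested, all had adjusted permutation p of 0.00800 or less for r and of 0.0371 or less for rho. The pairs were chosen after the data had been seen, pairs of unrelated genes were not tested, and no slide held more than 4 arrays of lung or forestomach.

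Among the other types, Col6a1 and Col6a2, which build the microfilaments that link fibrils to cells, followed the fibrillar pattern. Col6a1 averaged -0.41 ± 0.18 in lung, -2.66 ± 0.15 in liver and -1.02 ± 0.44 in forestomach, 4.75-fold and 3.13-fold above liver (limma adjusted p = 1.8e-13 and 4.5e-10). Between lung and forestomach it passed narrowly, 1.52-fold higher in lung (0.60 ± 0.17, limma adjusted p = 0.0042), and it fell below 1.5-fold without forestomach mouse 2 (0.39) and in 2 other such fits.

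Col17a1 and Col7a1 were highest in forestomach, whose lining is a stratified squamous epithelium. Col17a1, a membrane-spanning collagen of hemidesmosomes, was 2.81, 4.94, 4.85 and 4.63 in forestomach and 1.04, 1.10, 1.52 and 0.43 in lung, and it was not well above background in liver. Forestomach was 9.75-fold above lung (limma adjusted p = 3e-06) and at least 13.4-fold above liver (limma adjusted p = 1e-08). Col7a1, which forms the anchoring fibrils under such epithelium, was -0.17, -0.01, 0.66 and 1.22 in forestomach, -1.44, -1.38, -1.77 and -1.69 in lung and -2.66 ± 0.16 in liver, where 1 of 4 arrays was well above background. It was 3.98-fold above lung in forestomach (limma adjusted p = 1.1e-05) and 8.48-fold above liver (limma adjusted p = 1.5e-09). For both genes the 4 forestomachs lay above the 4 lungs.

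Col18a1, a basement membrane proteoglycan whose end fragment is endostatin, had the largest excess in liver. Its brightest probe was 4.04, 3.96, 3.89 and 3.96 in the livers, -0.39, -0.15, -0.43 and -0.55 in the lungs and -0.66, -0.94, -0.56 and -0.78 in the forestomachs. Liver was 20.4-fold above lung (limma adjusted p = 2.1e-15) and 26.0-fold above forestomach (limma adjusted p = 3e-16), and the other Col18a1 probe gave 29.5-fold and 36.8-fold. Of the 40 probes kept in forestomach or liver, 19 were called higher in forestomach and 4 in liver, where 22.7% and 18.8% of all probes were. Of the 24 kept in both, 14 and 3 were, against 24.3% and 20.5% of all such probes.

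Col23a1, a membrane-spanning collagen, averaged 3.11 ± 0.41 in lung and 1.45 ± 0.60 in forestomach (3.16-fold, limma adjusted p = 0.004) and was not well above background in liver. With the scanner software's log ratio this difference was not called (1.04, limma adjusted p = 0.14). Col14a1, which coats the surface of type I fibrils, averaged 3.51, 3.64 and 4.24 in lung, liver and forestomach and was not called between them on its brightest probe, whose reference signal was well above background on 30 of 42 arrays. Its dimmer probe was called higher in liver than in lung (-0.79 ± 0.20) and than in forestomach (-0.73 ± 0.21). Col8a1, a network-forming chain of vessel walls, was called lower in lung than in forestomach (-0.88 ± 0.21, limma adjusted p = 0.00064), but not with the scanner software's log ratio (-0.64, limma adjusted p = 0.33). Its lung to liver ratio was also called lower in lung (-1.04 ± 0.21), but it was not well above background in control liver, and its tissue-channel level in lung was at least 1.47-fold above the liver's bound, so no direction is given for that pair.

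The machinery that makes and anchors collagen was examined in 7 lists of pathway genes. Between control lung and liver the lists largely went with the collagens. Of the basement membrane partners (laminins, nidogens and others), 14 of 16 tested were called higher in lung and 1 lower, with a median difference of 2.72 where all probes had 0.03. Nid2, a nidogen that links laminin and type IV collagen, was lower in lung (-0.80). Of the enzymes and chaperones that modify and fold chains, 10 of 16 were higher and 3 lower, among them Serpinh1, the collagen-specific chaperone HSP47 (3.36), and P4hb, the disulfide isomerase that is also the beta subunit of prolyl 4-hydroxylase (-1.78). Of the receptors 8 of 9 were higher in lung, including the collagen-binding kinase Ddr2 (3.63). The TGF beta list had 8 of 10 higher and 1 lower, with Ccn2 at 4.17 and Fn1, which hepatocytes secrete as plasma fibronectin, at -1.55.

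Between lung and forestomach 12 of 16 basement membrane partners were called higher in lung and none lower (0 of 16), with Pxdn, the peroxidase that crosslinks type IV collagen, higher by 2.57. Lum, a fibril-binding proteoglycan, was lower in lung by -3.48. Between forestomach and liver the proteoglycans had 5 of 6 genes higher in forestomach, led by Ogn (4.21), and Postn, which binds collagen in fibrous tissue, was higher by 4.46. The list for propeptide cleavage and crosslinking had 5 of 11 genes called higher in the first-named tissue in lung against liver, lung against forestomach and forestomach against liver, and 1 to 2 lower, and that for proteases and their inhibitors 5 to 6 of 10 to 12 higher and 1 to 2 lower. The shares over all probes for these contrasts are those given above, 18.4% to 25% higher and 15.1% to 18.8% lower.

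The second question was whether BkF moved collagen levels. No collagen probe was called at any dose in any tissue, nor in a linear trend over dose, and few probes of any kind were. For D1, D2, D3 and the trend, 0 of 39 collagen probes were called in lung against 0%, 0.0153%, 0.0336% and 0.0367% of all probes, 0 of 32 in liver against 0%, 0.0488%, 0.06% and 0%, and 0 of 32 in forestomach against 0% throughout. At the high dose the differences from controls over the collagen probes ran from -0.81 to 0.34 in lung and from -0.63 to 0.99 in forestomach, with medians of -0.11 and 0.07 and median SE of 0.18 and 0.29. The D3 changes of the type I and III chains had 95% intervals of -0.38 to 0.39 for Col1a1 and -0.81 to 0.11 for Col3a1 in lung, and of -0.29 to 0.91 and -0.59 to 0.64 in forestomach. None of the 7 pathway lists had a gene called at any dose in any tissue.

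**Figure D2:**
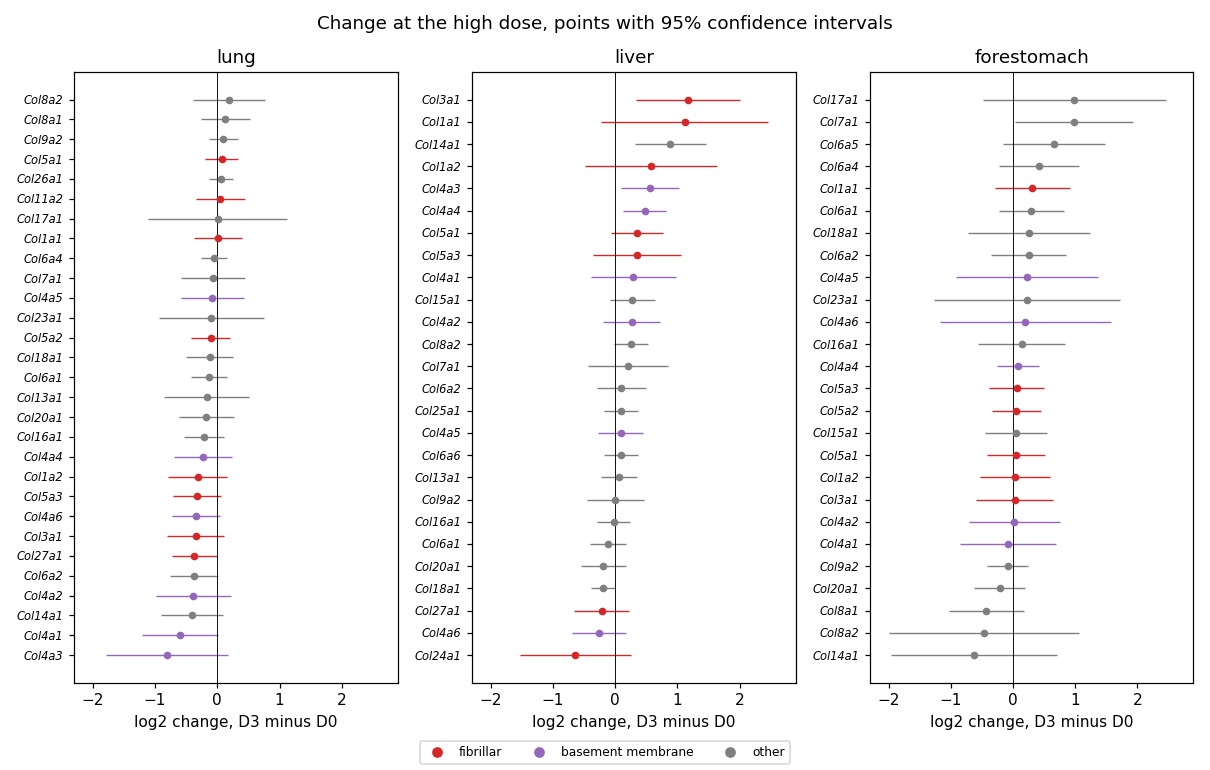
Change in log2 ratio between D3 and the vehicle-treated controls (D3 minus D0, x axis) for collagen genes (y axis) in lung, liver and forestomach, coloured by class, with bars for 95% confidence intervals. No change passed the test, and the largest were Col3a1 in liver (1.17) and Col1a1 in liver (1.11).

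At an unadjusted p under 0.05, which is a weaker criterion, liver had the most collagen probes. At D1, D2, D3 and in the trend there were 0, 10, 6 and 6 of 32, against 1.55%, 11.7%, 8.52% and 9.36% of all probes. Of these, 9 at D2 and 5 at D3 were higher than in controls, where 5.49% and 4.2% of all probes were. The fibrillar probes had medians of 0.59 at D2 and 0.36 at D3 and the type IV probes 0.49 and 0.28, where all probes had -0.02 and -0.01. The D2 medians rest in part on D2 mouse 12. Without it, a choice made after the data were seen, Col5a1, the median fibrillar probe at D2, went from 0.59 to 0.31. Every type IV probe kept in liver also moved down, whereas Col5a3, Col24a1 and Col27a1 moved up.

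Hepatic Col3a1 was -4.40, -4.32, -4.33 and -4.39 in controls, -4.12 and -4.16 at D1, -4.03, -2.57 and -3.45 at D2 and -4.07, -1.99, -3.76 and -2.94 at D3. All 9 treated livers lay above all 4 controls, and the treated livers were far more spread than the controls. The change was 1.01 ± 0.42 at D2 and 1.17 ± 0.39 at D3 (limma adjusted p = 0.38 and 0.42). Hepatic Col1a1 was -5.93, -5.83, -5.61 and -6.12 in controls, -5.46 and -5.73 at D1, -5.62, -2.04 and -4.92 at D2 and -5.55, -3.52, -5.19 and -4.78 at D3. Its change was 1.68 ± 0.67 at D2 (limma adjusted p = 0.38) and 1.11 ± 0.62 at D3 (limma adjusted p = 0.65), and Col1a2 gave 1.15 ± 0.53 and 0.58 ± 0.49.

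These values depended in part on 2 livers. D2 mouse 12 and D3 mouse 17 were the highest of their groups for Col1a1, Col1a2 and Col3a1. Without them, a choice made after the data were seen, the changes at D2 and D3 were 0.60 and 0.70 for Col1a1, 0.33 and 0.23 for Col1a2 and 0.62 and 0.77 for Col3a1, and the probes at an unadjusted p under 0.05 numbered 6 and 8 of 32, against 9.82% and 9.81% of all probes in that fit. The D2 values of Col1a1 and Col1a2 moved most, and at D3 the limma adjusted p without these livers was 0.34 for Col1a1 and 0.33 for Col3a1. The same livers stood out for connective tissue markers. The fibroblast list (8 of 8 genes detected, with Dcn, Lum and Dpt also in the proteoglycan list above) scored 0.54 in D2 mouse 12 and 1.19 in D3 mouse 17, against -0.11 to -0.06 in controls, and the smooth muscle list (8 of 8 detected) 0.79 and 1.79 against -0.17 to 0.10. D2 mouse 12 also had the highest mesothelium score (0.88; 3 of 4 genes detected), and D3 mouse 17 the highest skeletal muscle score (4.50; 5 of 10 detected). A further liver, D3 mouse 20, had scores of 0.34 for fibroblast, 0.58 for smooth muscle and 1.47 for white fat, and it was the second highest of D3 for Col1a1, Col1a2, Col3a1 and Col14a1. At D3 the hepatocyte list had 4 of 6 genes lower at an unadjusted p under 0.05 (median -0.33) and the white fat list 3 of 4 tested higher. The part of these cells in the collagen values was not tested.

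**Figure D3:**
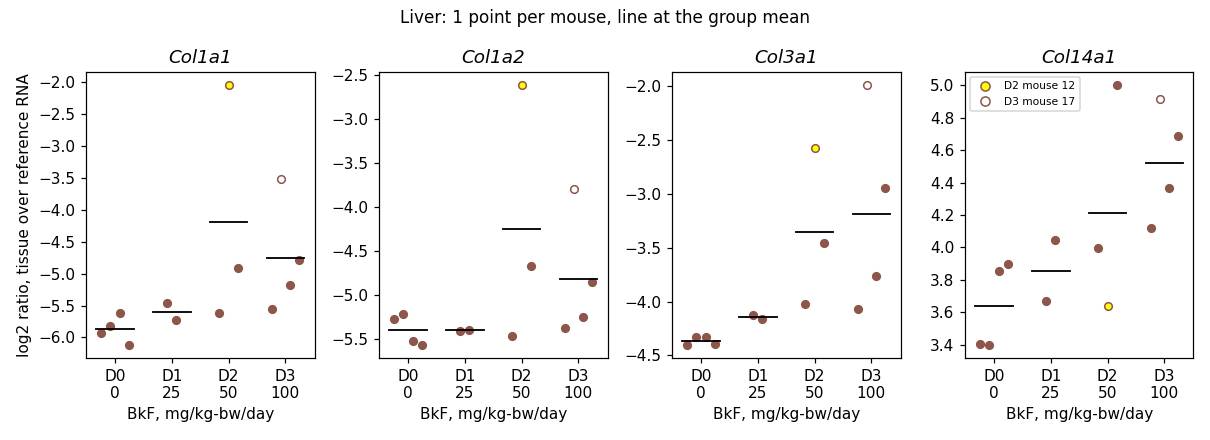
Hepatic log2 ratios (y axis) of Col1a1, Col1a2, Col3a1 and Col14a1 by BkF dose in mg/kg-bw/day (x axis), 1 point per mouse with lines at group means, D2 mouse 12 in yellow and D3 mouse 17 in white. The coloured mice are the highest of their groups for Col1a1, Col1a2 and Col3a1. For Col14a1, D2 mouse 12 is the lowest of its group and D3 mouse 17 the highest.

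Hepatic Col14a1 had another profile, at 3.40, 3.40, 3.85 and 3.90 in controls, 3.67 and 4.05 at D1, 4.00, 3.64 and 5.00 at D2 and 4.12, 4.91, 4.37 and 4.69 at D3. All 4 D3 livers lay above the controls. The D3 change was 0.88 ± 0.26 (limma adjusted p = 0.36) on this probe and 0.70 ± 0.21 (limma adjusted p = 0.36) on the other. D3 mouse 17, which had raised connective tissue markers, was again the highest D3 liver, at 4.91 and 2.39 on the respective probes. Among type IV chains, Col4a4 was 0.35, 0.12, 0.05 and 0.13 in controls and 0.60, 1.31 and 0.69 at D2, and none of these overlapped (0.71 ± 0.17, limma adjusted p = 0.18). Col4a3 was at least 1.71-fold higher at D2 than in controls, where it was not well above background, and had the lowest adjusted p of the collagens there (limma adjusted p = 0.17). Col4a1 and Col4a2 were 0.79 ± 0.34 and 0.69 ± 0.23 higher at D2 and 0.29 ± 0.32 and 0.26 ± 0.21 higher at D3. D2 mouse 12, which had raised connective tissue markers, was the highest D2 liver for Col4a1, Col4a2, Col4a3 and the brightest Col4a4 probe. Without it, a further choice made after the data were seen, the D2 changes were 0.27, 0.44, 0.70 and 0.49. Col18a1, the collagen with the highest liver preference, was 3.89 to 4.04 in controls and 3.58 to 3.92 at D3, with a trend of -0.19 ± 0.08 from D0 to D3 (limma adjusted p = 0.51). Col6a1 lay close to its controls (-0.12 ± 0.13 at D3). On the genes' brightest probes the lowest D3 changes were those of Col24a1 (-0.64 ± 0.41, and -0.23 without control mouse 1) and of the brightest Col4a6 probe in liver (-0.26 ± 0.20), whose other probe was 0.56 ± 0.29 higher, or 0.24 higher without D3 mouse 20, left out after its values were seen. The dimmer Col18a1 probe was at -0.29.

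In lung most collagen probes sat slightly below controls, 30, 32 and 27 of 39 at D1, D2 and D3, with medians of -0.14, -0.15 and -0.11 where all probes had -0.01, -0.01 and 0.00. At an unadjusted p under 0.05 there were 1, 2, 2 and, for the trend, 4 probes, against 1.76%, 4.25%, 8.02% and 8.48% of all probes. The 3 comparisons share their controls. Col4a6 was 1.26, 1.10, 0.95 and 0.81 in control lungs and 0.56, -0.32, 0.33 and 0.70 at D2, with no overlap (-0.71 ± 0.18, limma adjusted p = 0.64). The lowest was D2 mouse 12, which had the highest skeletal muscle score (5.37), a squamous epithelium score of 2.19 (5 of 9 genes detected, -0.13 to 0.11 in the other lungs) and a white fat score of 1.22. Col17a1 was at 3.91 in this lung. D1 mouse 7 had the highest glandular stomach score (3.61, with D1 mouse 8 next at 0.80). Without D2 mouse 12 and D1 mouse 7, again a choice made after the data were seen, 2, 3 and 5 of 39 probes had an unadjusted p under 0.05 at D1, D2 and D3, against 2.44%, 4.19% and 10.4% of all probes in that fit. The dimmer Col14a1 probe was 0.32 to 0.63 in controls and -0.08 to 0.15 at D3 (-0.49 ± 0.14, limma adjusted p = 0.38), while its brighter probe overlapped with controls.

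Col4a3, whose reference signal was well above background on 13 of 42 arrays, had the lowest D3 change in lung (-0.81 ± 0.46), followed by Col4a1 (-0.60 ± 0.29) and, further up, Col4a2 (-0.39 ± 0.28). Pulmonary Col4a1 was 1.53, 2.05, 1.95 and 1.57 in controls, 1.22, 1.93 and 1.72 at D1, 1.46, 1.53, 1.80 and 1.67 at D2 and 1.36, 1.36, 1.88 and 0.11 at D3. The last of these, D3 mouse 20, was the lowest lung for Col4a1, Col4a2, Col4a3 and the brightest of the 3 Col4a4 probes, and another lung was lowest on each of the other 2. Without it the D3 changes were -0.24, -0.05 and -0.31 for Col4a1, Col4a2 and Col4a3. This lung also had the lowest endothelium score (-0.69; 6 of 6 genes detected), while controls ran from -0.51 to 0.19 and D2 mouse 12 was at -0.65; the part of endothelium in the value was not tested. Heart muscle markers (5 of 5 genes detected) scored 1.39 in this lung and -1.94 to 1.57 over all lungs. The medians of that list were 2.05, 0.63 and 1.44 above controls at D1, D2 and D3, with 0 of 5 genes at an unadjusted p under 0.05, and their part in the lung collagen values was not tested. Mesothelium markers (4 of 4 detected) were below controls on 4 of 4 genes at D3 (median -0.69, 2 at an unadjusted p under 0.05), but above them on 4 of 4 at D2 (median 0.43). Lung epithelium markers (6 of 6 detected) were higher on 6 of 6 at D3 (median 0.24, 1 at an unadjusted p under 0.05) and on 1 of 6 at D2 (median -0.07). The part of these cells was not tested. Col4a3 also turned direction, to 0.57, with the scanner software's own log ratio. On the genes' brightest probes the highest D3 changes were those of Col8a2 (0.19 ± 0.27) and Col8a1 (0.13 ± 0.18), and Col1a1 lay at 0.00 ± 0.18.

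**Figure D4:**
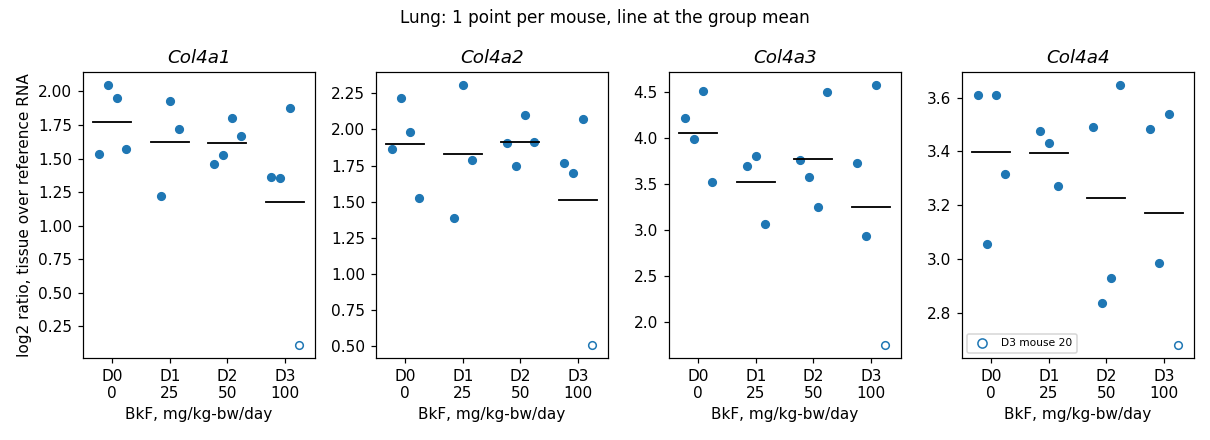
Pulmonary log2 ratios (y axis) of Col4a1 to Col4a4 by BkF dose in mg/kg-bw/day (x axis), 1 point per mouse with lines at group means and D3 mouse 20 in white. That lung is the lowest for each gene, at 0.11 for Col4a1.

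In forestomach the largest difference was that of Col14a1, at 4.97, 4.21, 3.64 and 4.14 in controls, 1.96, 1.21 and 2.79 at D1, 4.03, 1.29, 3.02 and 2.80 at D2 and 4.52, 2.44 and 3.87 at D3. All D1 values lay below the controls and the D3 values did not follow them. The change was -2.25 ± 0.62 at D1 (limma adjusted p = 0.26), -1.45 ± 0.57 at D2 (0.60) and -0.63 ± 0.62 at D3, which went to -0.043 without D3 mouse 17 and to -1.08 without D3 mouse 16. The D2 change went to -0.96 without D2 mouse 12. With only the D1 and D0 arrays in the fit the D1 change was called (-2.25 ± 0.40, limma adjusted p = 0.042). All these values are from the brightest probe, and the dimmer Col14a1 probe changed much less. It was 1.26, 0.47, 0.50 and 0.03 in controls and 0.06, 0.33 and 0.38 at D1, with overlap, and its D2 change was -0.15. This dimmer probe was well above background on 8 forestomach arrays. The 3 D1 forestomachs had glandular stomach scores of 0.11 to 0.57, whereas 2 of the 4 controls were at -5.07 and -4.76. The values of Col14a1 at D2 mouse 12 and D3 mouse 17, lowest in their groups, came with smooth muscle scores of -1.68 and -0.88. Fibroblast scores (8 of 8 genes detected) were -0.36, -1.26 and -0.18 in the D1 forestomachs, -1.2 in D2 mouse 12 and -0.36 in D3 mouse 17, against 0.03 to 0.37 in controls, and at D1 3 of 8 fibroblast genes were lower at an unadjusted p under 0.05 (median -0.63). Also at D1, 5 of 9 squamous epithelium genes were lower at that p (median -0.73), smooth muscle genes lay below controls on 8 of 8 (median -0.50) and mesothelium genes on 4 of 4 (median -0.77), and glandular stomach genes lay above them on 9 of 9 tested (median 2.60). D3 mouse 16 had scores of 3.87 for white fat (4 of 6 genes detected), 1.55 for mesothelium and 0.83 for fibroblast, each the highest of the forestomachs. The part of these cells in the change was not tested.

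Probes at an unadjusted p under 0.05 numbered 1, 4, 1 and 1 of 32 at D1, D2, D3 and in the trend, against 12.1%, 7.59%, 2.2% and 2.81% of all probes. At D2 they were Col14a1, Col4a1 (0.72 ± 0.33) and both Col18a1 probes (0.91 ± 0.42 and 1.08 ± 0.44). At this dose 27 of 32 collagen probes were above controls, with a median of 0.31 where all probes had 0.02. D2 mouse 12, whose glandular stomach score was 0.40, was the highest D2 forestomach on both Col18a1 probes, and without it, a choice made after the data were seen, the changes were 0.57 and 0.76. Without this mouse Col14a1 also moved toward controls, to -0.96, whereas Col4a1 moved away from them, to 1.03. At D3 and in the trend the probe was that of Col7a1, at -0.17, -0.01, 0.66 and 1.22 in controls and 1.69, 0.54 and 1.97 at D3 (0.98 ± 0.44, limma adjusted p = 1). Col17a1 was 2.81 to 4.94 in controls and 5.70, 4.49 and 5.69 at D3 (0.99 ± 0.68, and 0.49 without control mouse 1). D3 mice 16 and 20 lay above all controls for both genes and had glandular stomach scores of -4.42 and -4.22, while mouse 17, at 0.05, lay within the controls. Control mouse 1, with a score of -5.07, had the lowest control value of both genes. Control mouse 4, at -4.76, had the highest control value of Col7a1. The part of the glandular tissue, or of the other cells marked in D3 mouse 16, was not tested. The reference signal of Col17a1 was well above background on 21 of 42 arrays. After Col14a1 the lowest D3 change was that of Col8a2 (-0.47 ± 0.71), which ran from -0.99 to -0.21 as each mouse was left out in turn, and Col4a1 lay at -0.09 ± 0.36.

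**Figure D5:**
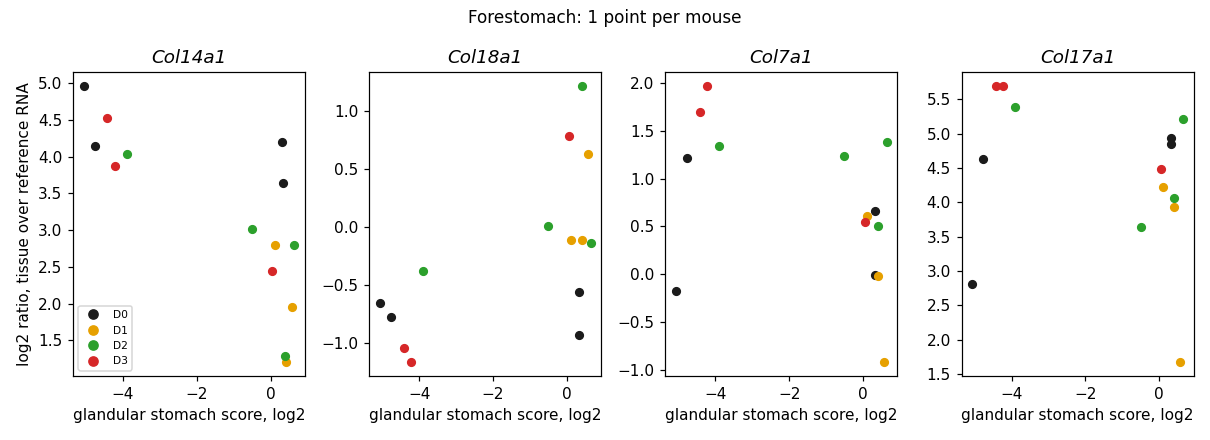
Forestomach log2 ratios (y axis) of Col14a1, Col18a1, Col7a1 and Col17a1 against the glandular stomach marker score of the same array (x axis, log2), 1 point per mouse, coloured by BkF dose. The 5 arrays at scores of -5.07 to -3.90 stand apart from the other 9, with Col14a1 at 3.87 to 4.97 in the 5 and 1.21 to 4.21 in the 9.

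The D3 effects were also compared between tissues. No collagen probe was called in lung against liver, lung against forestomach or forestomach against liver, where 0.0122%, 0.0122% and 0% of all probes were. At an unadjusted p under 0.05 there were 5, 1 and 3 collagen probes, against 5.25%, 4.59% and 3.39% of all probes. In lung against liver these were Col3a1 (-1.52 ± 0.44, limma adjusted p = 0.49), Col4a3, Col4a4 and both Col14a1 probes, each with the lower effect in lung. In forestomach against liver they were Col3a1 (-1.14 ± 0.46) and both Col14a1 probes.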

How the data were processed

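Per the labels, tissue RNA was labelled with Cy5 and reference RNA with Cy3, without dye swaps. The deposited scanner files hold spot intensity values (median red and green signals), Agilent's log10 ratio and background flags of another kind (yes or no per spot), and the authors' table holds log2 ratios. Per the study's methods, the authors took median signals without background subtraction, normalised them by LOWESS and tested them with MAANOVA. Here log2(red/green) of the medians was loess-normalised within each array with limma 3.58.1 in R 4.3.3, with control spots at weight 0 and repeated spots averaged. Probes were named through RefSeq accessions (GRCm38.p6, names only), which named 47.4% of 55681.

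Each tissue had 1 fit of its 4 dose groups, contrasted with D0 and tested for a linear trend (scaled as the change from D0 to D3), and 1 fit of all 42 arrays gave the contrasts between tissues. Calls needed a Benjamini-Hochberg adjusted p of 0.05 or less over all kept probes (32697 in lung, 26648 in liver, 25305 in forestomach; in a contrast between tissues, those kept in either) and, except for the trend, a change of 1.5-fold or more. Where no array of a group had a probe well above background, folds are bounds against the lowest signal well above background. A gene is given by its brightest probe. The text names Col1a1, Col1a2, Col3a1, Col4a1, Col4a2, Col6a1, the 2 highest and 2 lowest D3 changes of each tissue, the 5 largest called vehicle differences in each direction, and, per pathway list, the largest called difference each way; 1 gene that the rule picks is not reported here. Other named genes (such as Col5a1, Col14a1, Col18a1 and Col23a1, where the rule did not pick them) were chosen after their values were seen. The collagen genes, lists and rules were chosen with earlier results of these data known. The fits were tested on simulated data.

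The mouse number pairs the tissues of 1 animal, and with the mouse as a random block the correlation within a mouse was 0.0650 to 0.0836. Depth has no meaning for arrays, whose number limits the precision. The alternatives were the scanner's log ratio, normexp, Aquantile, no filter, the authors' table (lung and forestomach only, since its liver columns did not match the scanner files row by row, with r of -0.00301 to 0.000338), slide and mouse blocks, smaller fits, a glandular stomach covariate and each array left out.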

Additional observations from a re-analysis of the deposited data

Results flagged for a closer look

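Of 63 groups of 4 samples or more for the named genes, 5 had a mouse far from the others of its group, and chance gives about 1 such group in 20. Col3a1 in the lung of D0 mouse 4 was -0.731, with the other 3 controls at 0.164 to 0.294. Col1a2 in the lung of D2 mouse 12 was -2.11, with the others at -0.966 to -0.828, and this lung had a skeletal muscle score of 5.37. Col6a1 in the liver of D3 mouse 17 was -2.40, with the others at -2.93 to -2.86, and this liver had a skeletal muscle score of 4.50. Col17a1 in the forestomach of D0 mouse 1 was 2.81, with the others at 4.63 to 4.94, and its glandular stomach score was -5.07. Col7a1 in the forestomach of D2 mouse 12 was 0.506, with the others at 1.23 to 1.38, and its smooth muscle score was -1.68. The part of these scores in the values was not tested.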

How the results depend on the processing

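Counts of collagen probes called at a dose, in a trend or between D3 effects stayed at 0 under the alternatives, except that with only the groups compared in the fit 1 probe, Col14a1, was called at D1 in forestomach. Between control tissues, the number called higher in liver than in forestomach rose from 4 to 10 with the scanner software's log ratio. Leaving out each mouse in turn gave 0 called in every dose comparison, 20 to 21 higher in lung and 6 higher in liver for lung against liver (Col8a1, given no direction, is among the 6 with all mice), 10 to 11 higher in lung and 7 to 11 in forestomach, and 18 to 20 higher in forestomach and 3 to 5 in liver. With the replicate block (the mouse) the counts were unchanged at 21 and 6, 11 and 9, and 19 and 4, and no D3 effect was called.

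Some D3 changes turned direction. With the scanner's log ratio, Col1a1 in lung went to -0.035 and Col4a3 in lung from -0.81 to 0.57. In forestomach, the glandular stomach covariate gave Col1a2 -0.0074 and Col4a2 -0.0073, and the slide block gave Col4a1 0.024 and Col8a2 0.017. Leaving out each mouse gave -0.14 to 0.076 for Col1a1 in lung and, in forestomach, -0.10 to 0.11 for Col1a2, -0.14 to 0.18 for Col3a1, -0.29 to 0.12 for Col4a1 and -0.23 to 0.20 for Col4a2. The difference in Col8a1 between lung and liver went from -1.04 to 0.66 with the scanner's log ratio. Between lung and forestomach, Col4a6 missed the threshold with the slide block (-1.03, limma adjusted p = 0.0501) and without forestomach mouse 4 (-0.99), as did Col8a1 (-0.64), Col23a1 (1.04) and Col6a1 (0.45) with the scanner's log ratio, and Col1a2 passed in the authors' table (0.59). Col24a1 fell below 1.5-fold in liver against forestomach without liver mouse 1 (-0.55). The cause was not tested. Group sizes of 2 to 4 mice and the signal of dim probes such as Col4a3 in liver limit what could be detected.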
